A study of Mus musculus with 12 samples.

Results

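The 10 genes described here carry the sensing of bacterial lipopolysaccharide (LPS) and the negative feedback on NF-kB. They were chosen by name for these roles, with earlier results of these data known, and are 10 of the 55414 genes in the table. Tlr4, Ly96, Cd14 and Lbp encode the parts that bind LPS at the cell surface, Myd88, Ticam1 and Tirap encode the adaptors that pass the signal on, and Irak3, Tnfaip3 and Nfkbia encode brakes on it. Their values are in TPM, a unit that divides the reads of a gene by its length and scales each library to a common total. All of the 10 reached at least 1 TPM in at least 6 of 12 lungs and entered the test.

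RNA was sequenced from whole lungs of 12 mice on day 4 after LPS. Of these, 6 were IL-10 B-WT and 6 were IL-10 B-KO, in which a floxed Il10 gene is removed by Mb1-Cre. Mb1 is another name for Cd79a, and its promoter drives Cre in the B cell lineage, so that Il10 in macrophages, T cells and other sources is left intact. The sources used here do not say whether the IL-10 B-WT mice carried the floxed allele, and no lung without LPS was analysed here. The comparison therefore asks how the sensing and feedback genes stood in LPS-treated lungs of the IL-10 B-KO and IL-10 B-WT mice. It does not ask how these genes respond to LPS. The genotypes also differed in B cell transcripts, as given below.

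LPS-binding protein (Lbp) extracts LPS and hands it to CD14, which passes it to the complex of MD-2 (the product of Ly96) and TLR4. TIRAP and MyD88 then lead to NF-kB, while TRIF (the product of Ticam1) leads to interferon regulatory factors and a later wave of NF-kB. NF-kB in turn induces its own inhibitors, among them IkBα (Nfkbia), which holds NF-kB in the cytoplasm, and A20 (Tnfaip3), which edits ubiquitin chains on signaling proteins, while IRAK-M (Irak3) blocks the kinase step below MyD88. Monocytes, macrophages and neutrophils carry CD14 and TLR4.

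Several facts of the libraries bear on every value below. Il10 itself was listed at 0 to 0.88 TPM in the IL-10 B-WT lungs and at 0 to 0.58 TPM in IL-10 B-KO lungs, too low to check the genotype. Cd79a ranged from 15.3 to 259 TPM in the IL-10 B-WT lungs and reached at most 5.73 TPM in the IL-10 B-KO lungs. The 7 B cell markers used summed to 77.7 to 887 TPM against 7.71 to 84.0 TPM. Cd79a was at 0 in 3 of the IL-10 B-KO lungs. Immunoglobulin genes held between 0.248% and 15.4% of the TPM in the IL-10 B-WT group (median 1.52%). Their share in the IL-10 B-KO group was between 0.00245% and 0.0652% (median 0.00581%), without overlap. The loss of Il10 and the lower B cell transcripts therefore cannot be told apart in any difference between the genotypes. In bulk tissue, fewer cells of a type and less RNA per cell cannot be told apart either. One lung, IL-10 B-WT replicate 1, stood apart from its group, with the highest value of the 6 for 10 of 10 members. IL-10 B-WT replicate 5 had the lowest value of all 12 lungs for 10 of 10 members, and 30.5% of its TPM were mitochondrial and 9.66% globin. These 2 lungs were also the extremes for the genes as a whole. The median log2(TPM + 1) of all genes tested was highest in replicate 1 (4.02) and lowest in replicate 5 (2.996). Their places are therefore not particular to the members. Among IL-10 B-KO lungs, replicate 2 was the lowest for 8 members and replicate 5 the highest for 7.

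Of the 10 members, 9 had a positive log2 fold change (IL-10 B-KO over IL-10 B-WT, on log2(TPM + 1), limma), where 63.2% of the 15148 genes tested did. The exception was Nfkbia. The median log2 fold change of the members was 0.64, beside 0.10 over all genes tested. A gene was called where its limma adjusted p was at most 0.05 and its log2 fold change at least 1 in size. Of the 10 members 0 were called, where 0.495% of all genes tested were (0.0264% higher and 0.469% lower). At an unadjusted limma p of at most 0.05, 4 members passed, Tlr4, Ly96, Cd14 and Lbp, where 12.5% of all genes tested passed, 6.83% in the same direction. The 4 are the genes of LPS binding, and with all 12 lungs 0 of the 3 adaptors and 0 of the 3 feedback genes passed. This split follows the p threshold and not the order of the log2 fold changes. Irak3 (0.92), Tnfaip3 (0.76) and Myd88 (0.75), which did not pass, had larger log2 fold changes than Ly96 (0.67), Tlr4 (0.60) and Lbp (0.50). Those of Tirap (0.60), Ticam1 (0.19) and Nfkbia (-0.02) were below that of Ly96. Whether these groups of genes differ was not tested. By the exact permutation test 1 member passed, Cd14, where 11.2% of all genes tested did (5.39% in the same direction). For 0 members did the groups separate without overlap, where 1.02% of all genes did (0.0924% in that direction).

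The count of 4 depended on single lungs. Without IL-10 B-WT replicate 1 it was 8, where 25.2% of all genes passed, and Myd88, Tirap, Irak3 and Tnfaip3 were then among the 8. Without IL-10 B-KO replicate 2 it was 6, with Myd88 and Irak3 among them, where 18.8% of all genes passed. It stayed at 4 without IL-10 B-KO replicate 1, with Tirap in the place of Lbp, where 10.6% of all genes passed. It was 2 when IL-10 B-WT replicate 2 or 3 or IL-10 B-KO replicate 4 was left out, where 10.7%, 12.3% and 11% of all genes passed. It was 1 (Cd14) when IL-10 B-WT replicate 4, 5 or 6 was left out, beside 8.36%, 11.3% and 8.63% of all genes, and likewise for IL-10 B-KO replicate 3, 5 or 6, beside 8.36%, 7.81% and 8.73%.

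**Figure D1:**
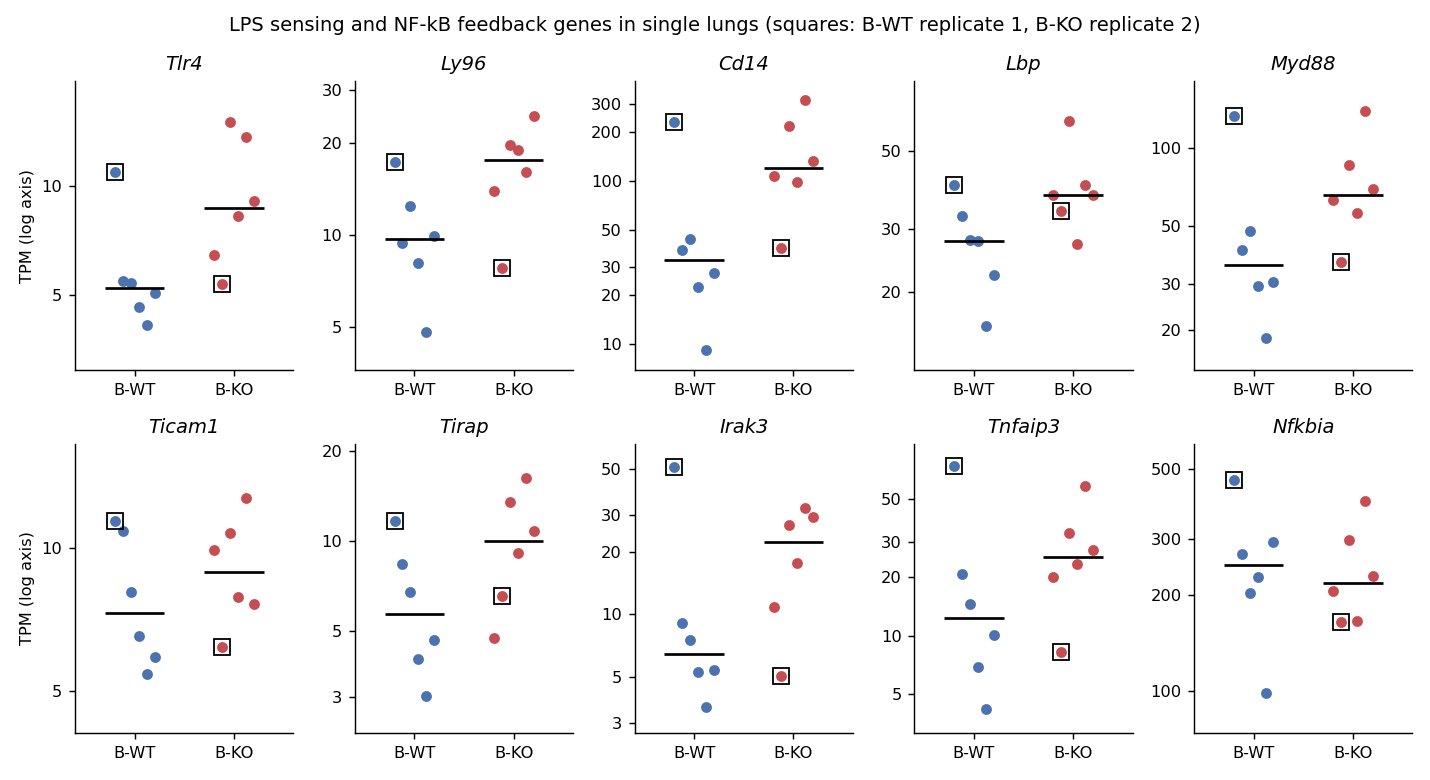
Values of the 10 members in single lungs, as TPM on log axes, with 1 point per lung, a line at the median of each genotype (n = 6) and squares around replicate 1 of IL-10 B-WT and replicate 2 of IL-10 B-KO. The squared IL-10 B-WT lung lies above the other 5 lungs of its genotype in every panel, and the groups overlap in every panel.

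Cd14 had the widest genotype difference of the members. It encodes the surface protein that loads LPS onto MD-2 and TLR4, and lies on chromosome 18 (GRCm38, 36725067 to 36726798, minus strand). In the 6 IL-10 B-WT lungs, in the order of their replicate numbers, its TPM were 231, 38.1, 44.1, 22.4, 9.24 and 27.6, and in the 6 IL-10 B-KO lungs they were 107, 38.7, 219, 98.7, 317 and 134. The first IL-10 B-WT lung reached the level of the upper IL-10 B-KO lungs, IL-10 B-KO replicate 2 lay among the IL-10 B-WT lungs, and the other 5 IL-10 B-KO lungs were above the other 5 IL-10 B-WT lungs. On the log2 scale the difference was 1.75 (standard error 0.65, 95% confidence interval 0.36 to 3.14), a fold of 3.36 (1.28 to 8.84). The limma adjusted p was 0.328, and the exact permutation test gave p = 0.0455 unadjusted. Without IL-10 B-WT replicate 1 the log2 fold change was 2.28 with a limma adjusted p of 0.0333, and with array quality weights it was 1.71 with a limma adjusted p of 0.0459. Over the 23 alternatives the log2 fold change of Cd14 lay between 1.38 and 2.28 and its limma adjusted p between 0.0333 and 0.626. In both of the fits that called Cd14, more genes were called overall (3.99% and 2.1%, of which 2.37% and 0.535% higher).

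Tlr4 encodes the receptor itself (chromosome 4, 66827584 to 66930284, plus strand). Its lowest, median and highest values were 4.13, 5.24 and 10.99 TPM in IL-10 B-WT lungs, against 5.36, 8.71 and 15.1 TPM in the knockout. Replicate 1 alone among the IL-10 B-WT lungs was above 5.48 TPM, while 5 of 6 IL-10 B-KO lungs were above that level. This gave a log2 fold change of 0.60 (95% confidence interval 0.02 to 1.17, exact permutation p = 0.0649, limma adjusted p = 0.381).

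Ly96 encodes MD-2, the subunit in whose pocket LPS sits (chromosome 1, 16688051 to 16709611, plus strand). It ran from 4.80 to 17.4 TPM in IL-10 B-WT lungs (median 9.68) and from 7.81 to 24.7 TPM in IL-10 B-KO lungs (median 17.6). All IL-10 B-KO lungs other than replicate 2 were above the second highest IL-10 B-WT lung, at 12.5 TPM. For Ly96 the log2 fold change was 0.67 (95% confidence interval 0.04 to 1.303, exact permutation p = 0.0606, limma adjusted p = 0.379). The median of MD-2 mRNA was above that of its partner Tlr4 in both genotypes.

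Lbp encodes the soluble LPS carrier of plasma and airway fluid (chromosome 2, 158306493 to 158332852, plus strand). It varied less than Cd14, from 16.1 to 40.1 TPM in IL-10 B-WT lungs (median 27.9) and from 27.4 to 60.4 TPM in IL-10 B-KO lungs (median 37.5). Of the 6 IL-10 B-KO lungs 5 lay within the IL-10 B-WT range, and replicate 3 was above it. For Lbp the log2 fold change was 0.50 (95% confidence interval 0.01 to 0.99, exact permutation p = 0.0584, limma adjusted p = 0.382).

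With all 12 lungs the adaptors did not pass the test. Myd88, the adaptor shared by most Toll-like receptors (chromosome 9, 119335934 to 119341411, minus strand), ran from 18.7 to 133 TPM in IL-10 B-WT lungs (median 35.6) and from 36.6 to 139 TPM in IL-10 B-KO lungs (median 66.1). Its highest IL-10 B-WT value was in replicate 1, and the next was 48.2 TPM. Its difference on the log2 scale was 0.75 (standard error 0.41, limma adjusted p = 0.460, exact permutation p = 0.143). Leaving out IL-10 B-WT replicate 1 gave 1.09 (limma adjusted p = 0.0602, range over the alternatives 0.0602 to 0.740).

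Tirap, which brings MyD88 to TLR4 at the membrane (chromosome 9, 35184551 to 35200291, minus strand), had medians of 5.68 TPM (3.03 to 11.6) in IL-10 B-WT lungs and 9.93 TPM (4.73 to 16.2) in IL-10 B-KO lungs, a log2 fold change of 0.60 (95% confidence interval -0.09 to 1.29, limma adjusted p = 0.451). Leaving out the same lung gave 0.78 for Tirap (limma adjusted p = 0.139, range over the alternatives 0.139 to 0.7335). Ticam1, which encodes TRIF (chromosome 17, 56269319 to 56276786, minus strand), was the flattest of the adaptors, at 5.45 to 11.4 TPM (median 7.32) against 6.20 to 12.8 TPM (median 8.92). Here the log2 fold change was 0.19 (95% confidence interval -0.28 to 0.65, limma adjusted p = 0.711).

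None of the feedback genes passed the test with all 12 lungs, and for each of them IL-10 B-WT replicate 1 had the highest value of all 12 lungs. Irak3 (chromosome 10, 120141648 to 120202130, minus strand) was at 50.9 TPM there and between 3.58 and 9.05 TPM in the other 5 IL-10 B-WT lungs. In IL-10 B-KO lungs it ran from 5.05 to 32.4 TPM (median 22.2), and 5 of the 6 were above 9.05 TPM. With all lungs its log2 fold change was 0.92 (95% confidence interval -0.30 to 2.14, limma adjusted p = 0.496), and it was 1.41 without IL-10 B-WT replicate 1 (limma adjusted p = 0.0624, range over the alternatives 0.0624 to 0.753).

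Tnfaip3 (chromosome 10, 19000910 to 19015657, minus strand) had TPM of 73.9, 20.8, 14.5, 6.93, 4.23 and 10.03 in the IL-10 B-WT lungs, in the same order, and of 19.95, 8.26, 33.4, 23.2, 58.4 and 27.5 in the IL-10 B-KO lungs. The highest lung of all was in IL-10 B-WT and the ranges overlapped. Its log2 fold change was 0.76 (95% confidence interval -0.48 to 2.00, limma adjusted p = 0.566), and it was 1.22 without IL-10 B-WT replicate 1 (limma adjusted p = 0.117, range over the alternatives 0.117 to 0.821).

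Nfkbia (chromosome 12, 55489410 to 55492647, minus strand) had TPM of 461, 270.5, 204, 229, 98.5 and 294 in the IL-10 B-WT lungs and of 206, 165, 299, 166, 398 and 229.97 in the IL-10 B-KO lungs. The groups overlapped, and the log2 fold change was -0.02 (95% confidence interval -0.73 to 0.69, limma adjusted p = 0.984). Its sign turned in 6 of 23 alternatives, and its interval leaves room for a difference of over 1.5-fold in either direction.

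**Figure D2:**
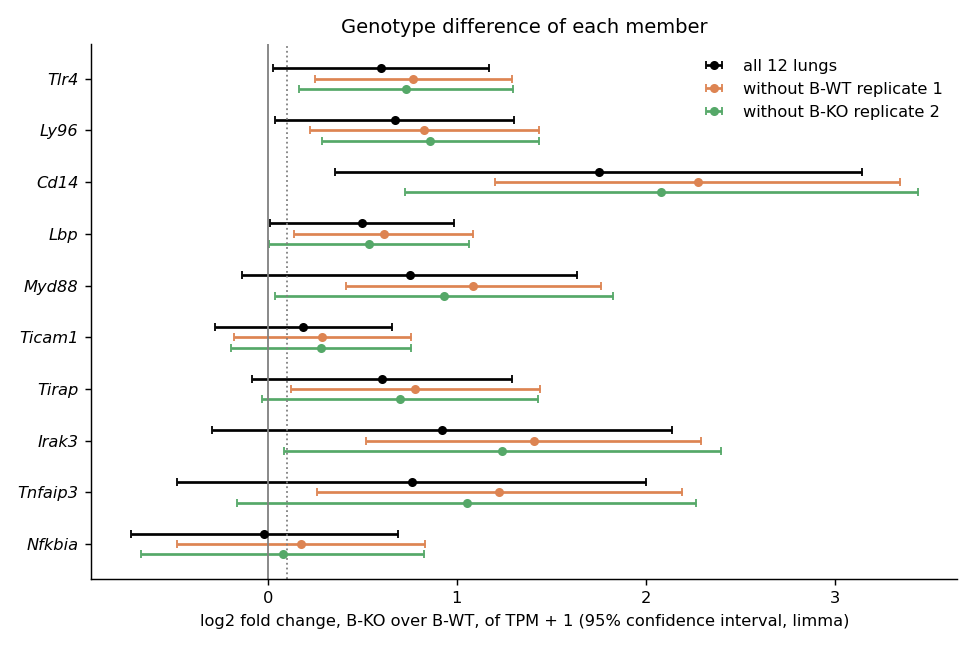
Log2 fold change of each member (x axis, IL-10 B-KO over IL-10 B-WT, on TPM + 1) with its 95% confidence interval from limma, over all 12 lungs (black), without replicate 1 of IL-10 B-WT (orange) and without replicate 2 of IL-10 B-KO (green), with a dotted line at the median of all genes tested (0.10). Cd14 lies farthest to the right and Nfkbia at 0, and leaving out either lung moves every point to the right.

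The stretches before RefSeq starts of Tnfaip3 and Nfkbia are shown because both genes are known to be induced by NF-kB, while their values here differed in spread. The κB consensus, the 10-base element that NF-kB binds, was searched on both strands of the 300-base RefSeq promoters (GRCm38.p6, 250 bases before to 50 after a start), which held 6 of the 10 members in 9 windows. A match was present in 1 window of Tnfaip3 and in that of Nfkbia, and in 2779 of all 32851 promoters (8.46%). Tnfaip3 held 2 matches, and 2 or more were held by 1.22% of all promoters. The 137 bases nearest to each start are printed from 5′ to 3′ on the minus strand, for Tnfaip3 chr10:19015411-19015547 and for Nfkbia chr12:55492648-55492784, with each match in capitals.
Tnfaip3: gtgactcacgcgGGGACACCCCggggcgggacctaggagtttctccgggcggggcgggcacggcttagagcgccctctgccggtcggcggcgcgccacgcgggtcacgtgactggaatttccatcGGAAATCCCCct
Nfkbia: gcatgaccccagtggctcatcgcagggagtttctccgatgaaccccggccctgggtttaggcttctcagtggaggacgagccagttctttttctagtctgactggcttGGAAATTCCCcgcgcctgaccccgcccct
The matches of Tnfaip3 began 125 and 12 bases before the RefSeq start used and that of Nfkbia 29 bases before its own. The GENCODE span of Tnfaip3 given above reaches 19015657 on the minus strand, so its printed stretch lies inside the annotated gene. The span of Nfkbia reaches 55492647, so its printed stretch lies before the annotated gene. The windows of Myd88, Ticam1, Tirap and Irak3 held no match, which says only that these letters are not in these windows. No binding was measured in these lungs.

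TPM are divided by gene length, so that levels can be set side by side between genes. Nfkbia was the most abundant member in 12 of 12 lungs, with a median of 229 TPM over all lungs. Then came Cd14 (71.4 TPM), Myd88 (52.4), Lbp (33.3), Tnfaip3 (20.4), Ly96 (13.2), Irak3 (9.96), Ticam1 (7.995), Tirap (7.54) and Tlr4 (5.97). Cd14 was above Myd88 in 7 of 12 lungs, which does not separate these neighbours, and Irak3, Ticam1, Tirap and Tlr4 also changed places from lung to lung. The place of Cd14 differed between the genotypes, since it was above Myd88 in 6 of 6 IL-10 B-KO lungs and below it in 5 of 6 IL-10 B-WT lungs. The receptor itself was the rarest member by median in both genotypes.

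**Figure D3:**
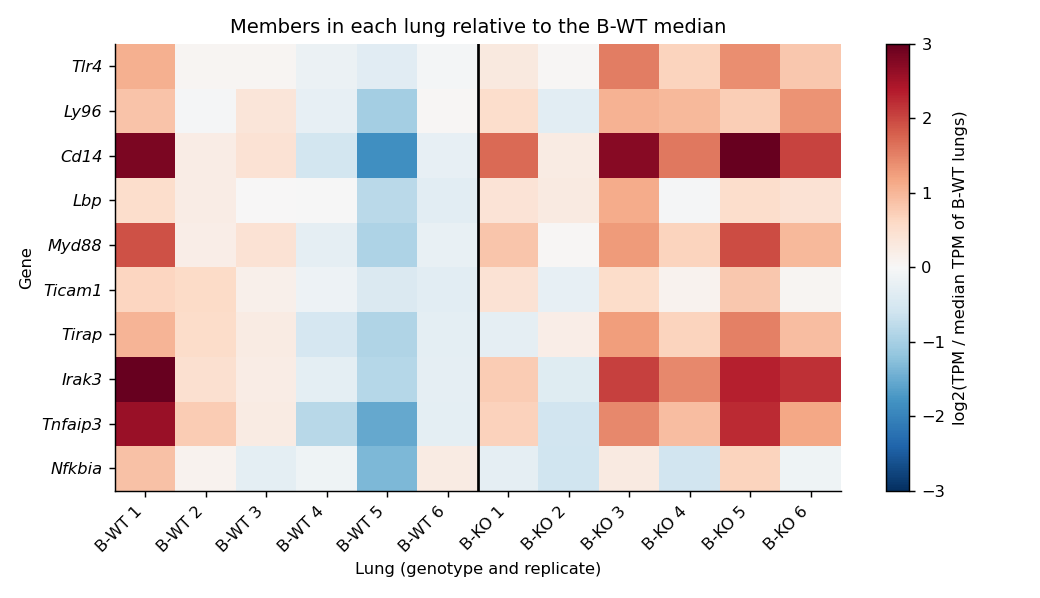
Each member (rows) in each lung (columns), colored by the log2 ratio of its TPM to the median TPM of the IL-10 B-WT lungs, with a line between the genotypes. The column of IL-10 B-WT replicate 1 is red for all of the members and that of replicate 5 blue for all, and the colors are strongest for Cd14, Irak3 and Tnfaip3.

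Since the members moved together from lung to lung, their ratios within a lung were also compared. These are free of the scaling of the libraries. The ratios were examined after the values had been seen, and p-values are unadjusted. Of the 45 pairs of members, 13 had an exact permutation p of at most 0.05, of which 7 were among the 9 pairs with Cd14 and 6 among the 9 pairs with Nfkbia, with 1 pair counted in both.

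The ratio of Cd14 to Tnfaip3 separated the genotypes. It ran from 1.84 to 3.23 in IL-10 B-WT lungs (median 2.89) and from 4.26 to 6.54 in IL-10 B-KO lungs (median 5.12). Every IL-10 B-KO lung was above every IL-10 B-WT lung, including replicate 2 of IL-10 B-KO and replicate 1 of IL-10 B-WT, whose levels of both genes were far from their groups. The log2 ratio differed by 0.96 (SD 0.33 among IL-10 B-WT lungs and 0.21 among the others, exact permutation p = 0.00216, the smallest that 6 against 6 lungs can give). Leaving out each lung in turn gave differences of 0.86 to 1.02. Among the 14748 tested genes above 0 TPM in every lung, 69.6% gave a ratio to Cd14 with an exact permutation p of at most 0.05, so that the p-value itself is common for Cd14. A separation without overlap was found for 0.203% of these genes and for 1 of the 9 other members, Tnfaip3.

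**Figure D4:**
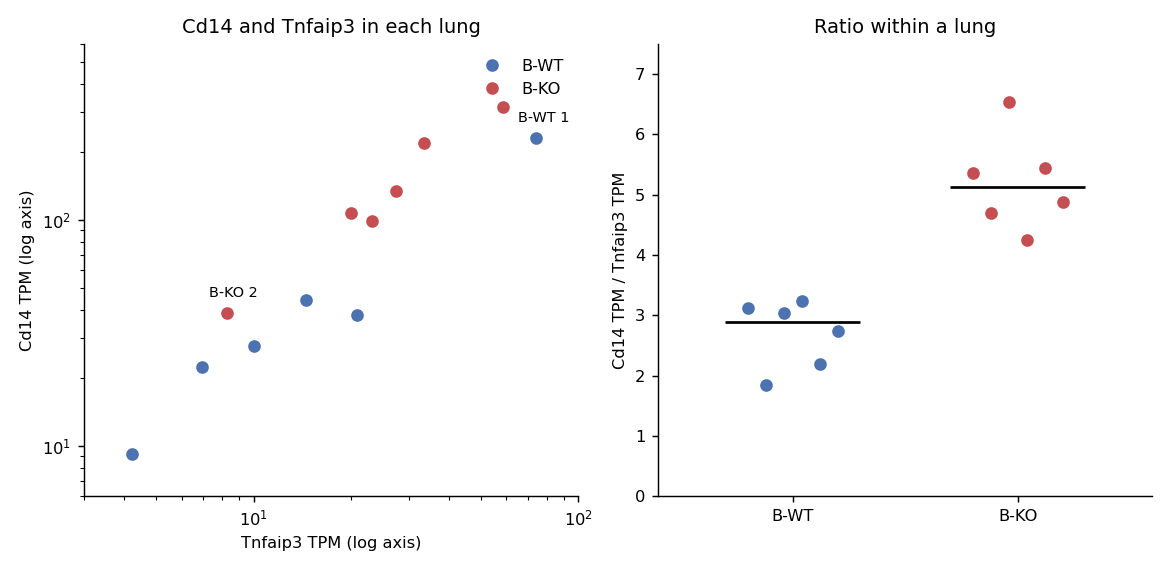
Left, Cd14 against Tnfaip3 in each lung (TPM, log axes, 1 point per lung), and right, the ratio of Cd14 TPM to Tnfaip3 TPM in each lung with a line at the median of each genotype (n = 6). The levels of each gene overlap between the genotypes, whereas the ratio is at most 3.23 in IL-10 B-WT lungs and at least 4.26 in IL-10 B-KO lungs.

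Against Nfkbia, the ratio of Cd14 ran from 0.0936 to 0.5002 in IL-10 B-WT lungs and from 0.234 to 0.798 in the IL-10 B-KO lungs. The highest IL-10 B-WT lung, again replicate 1, lay among the IL-10 B-KO lungs. The log2 ratio differed by 1.81 (exact permutation p = 0.00433). The ratios to Nfkbia of Tlr4 (log2 difference 0.70, exact permutation p = 0.0152), Myd88 (0.79, p = 0.0152), Tirap (0.71, p = 0.0238), Ly96 (0.75, p = 0.0260) and Lbp (0.54, p = 0.0476) passed too, and those of Ticam1 (0.23, p = 0.357), Irak3 (1.04, p = 0.0649) and Tnfaip3 (0.85, p = 0.0779) did not. Of all other tested genes above 0 TPM in every lung, 12.5% had a ratio to Nfkbia with an exact permutation p of at most 0.05, and 0.698% separated without overlap, among them 0 members.

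The other genes of the pathway were read from lists. None of the 20 genes that relay the signal from TLR4 to NF-kB and IRF3 was called by limma, and 0 passed an unadjusted p of 0.05. Their median log2 fold change was 0.24, with 18 above 0. The smallest p was that of Ikbke, a kinase of the interferon branch, with medians of 15.0 and 61.9 TPM (log2 fold change 1.52, standard error 0.84, exact permutation p = 0.143, limma adjusted p = 0.460). Irak4, the first kinase below MyD88, was next (0.53, standard error 0.30, exact permutation p = 0.141).

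Of 22 other NF-kB inhibitors and feedback genes, 0 were called and 1 passed an unadjusted p of 0.05, with a median log2 fold change of 0.42. This was Tnip3, which encodes a partner of A20, at 0.57 to 13.0 TPM (median 1.29) against 1.6 to 15.7 TPM (median 5.77), a log2 difference of 1.27 (standard error 0.56, exact permutation p = 0.0758, limma adjusted p = 0.378). Socs3, an inhibitor of cytokine signaling, was next (1.21, standard error 0.64, exact permutation p = 0.128).

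Among 8 tested genes of LPS binding and handling, 0 were called and 4 passed an unadjusted p of 0.05. All 8 were above 0, with a median log2 fold change of 1.14. Itgam, a subunit of the integrin CR3, had medians of 7.10 and 77.2 TPM (log2 fold change 2.35, standard error 0.79, exact permutation p = 0.0390, limma adjusted p = 0.290). The scavenger receptor Msr1 had medians of 2.44 and 25.8 TPM (2.32, standard error 0.94, exact permutation p = 0.0606, limma adjusted p = 0.353). Both are also genes of macrophages. Bpi, also on the list, was below 1 TPM in all lungs and was not tested.

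Of 11 other Toll-like receptors, 0 were called and 4 passed an unadjusted p of 0.05, with a median log2 fold change of 0.80. Tlr8, a sensor of RNA in endosomes, had medians of 2.15 and 10.4 TPM (log2 fold change 1.505, standard error 0.42, exact permutation p = 0.0152, limma adjusted p = 0.181). Tlr13, which senses bacterial ribosomal RNA, had medians of 2.92 and 19.3 TPM (1.92, standard error 0.59, exact permutation p = 0.0216, limma adjusted p = 0.244). Both log2 fold changes were above that of Tlr4, but the difference between the receptors was not tested.

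Of 11 tested cytokines and enzymes induced by NF-kB, 0 were called and 0 passed an unadjusted p of 0.05, although 11 were above 0 with a median log2 fold change of 1.24. Ccl3, a chemokine of macrophages, was at 288 TPM in IL-10 B-WT replicate 1 and had medians of 4.08 and 69.4 TPM (log2 fold change 2.35, standard error 1.13, exact permutation p = 0.115), followed by Cxcl2, a neutrophil chemokine (2.34, standard error 1.17, exact permutation p = 0.117). Of 7 tested acute-phase genes, 0 were called and 4 passed an unadjusted p of 0.05, with a median log2 fold change of 1.24. Saa3 had the largest value (4.74, standard error 1.75, exact permutation p = 0.0411, limma adjusted p = 0.328), with medians of 59.0 and 4926 TPM, followed by Lcn2 (2.51, standard error 1.03, exact permutation p = 0.0649, limma adjusted p = 0.356). Of 8 immediate early genes, 0 were called and 3 passed an unadjusted p of 0.05, Ier3 and Fos above 0 and Jun below.

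**Figure D5:**
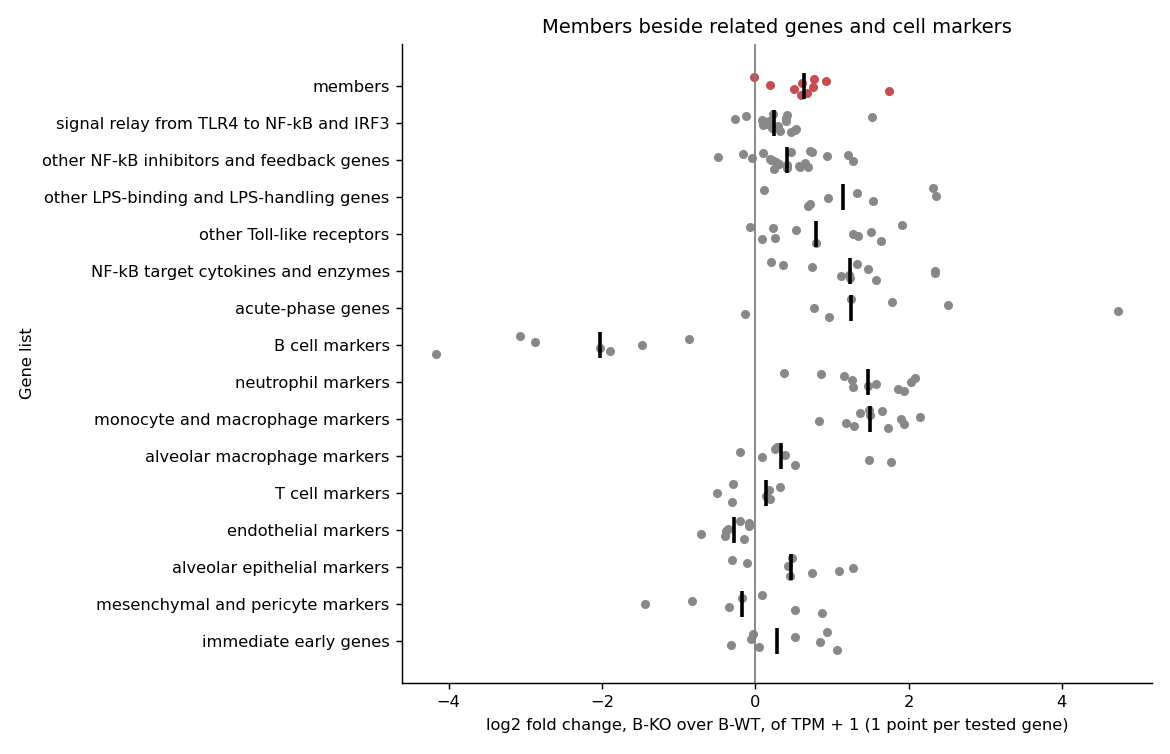
Log2 fold change (x axis, IL-10 B-KO over IL-10 B-WT, on TPM + 1) of the tested genes of each list, with 1 point per gene and a line at the median of the list. The 10 members (red, median 0.64) lie between the relay genes (0.24) and the markers of monocytes and macrophages (1.49) and neutrophils (1.48), and the B cell markers lie below 0.

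Markers of monocytes, macrophages and neutrophils, which carry CD14 and TLR4, were also higher in IL-10 B-KO lungs. Those of alveolar macrophages, given further below, had a median log2 fold change of only 0.33. Whether these cells account for the values of the members was not tested. All 11 markers of monocytes and macrophages were above 0 and all 11 passed an unadjusted limma p of 0.05, with 0 called and a median log2 fold change of 1.49. They summed to 819 to 13935 TPM in IL-10 B-WT lungs (at most 6392 TPM without replicate 1) and 3772 to 12354 TPM in IL-10 B-KO lungs. Of 11 neutrophil markers, 11 were above 0, 8 passed and 0 were called (median 1.48), with sums of 395 to 2587 TPM against 1179 to 7919 TPM. For both lists the highest IL-10 B-WT lung was replicate 1 and the lowest IL-10 B-KO lung was replicate 2, as for most members.

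Expressed per 1000 TPM of the monocyte and macrophage markers, Cd14 ran from 6.89 to 16.6 TPM in the IL-10 B-WT lungs and from 8.92 to 29.0 TPM in IL-10 B-KO lungs, a log2 difference of 0.50 (exact permutation p = 0.164). Per 1000 TPM of the neutrophil markers the difference was 0.09 (exact permutation p = 0.814). Relative to these markers Cd14 did not pass the test, and its own log2 fold change of 1.75 stood beside list medians of 1.49 and 1.48. The medians weigh each marker alike, whereas a few abundant genes carry the sums. In IL-10 B-WT replicate 1, Lyz2 alone was 11126 of the 13935 TPM of the monocyte and macrophage markers. In IL-10 B-KO replicate 5, S100a8 and S100a9 were 2320 and 4024 of the 7919 TPM of the neutrophil markers. Nfkbia itself had a log2 fold change of -0.02 while the markers were higher, which alone lowers its ratio to them. Nfkbia was lower relative to both lists, at 31.9 to 120 TPM against 17.2 to 43.8 TPM per 1000 TPM of monocyte and macrophage markers (log2 difference -1.31, exact permutation p = 0.0152). Per 1000 TPM of neutrophil markers it was at 165 to 429 TPM against 44.2 to 140 TPM, without overlap (-1.72, exact permutation p = 0.00216, the smallest possible), as were 1.34% of all tested genes above 0 TPM in every lung in the same direction. Relative to the monocyte and macrophage markers 2 of 10 members had an exact permutation p of at most 0.05, Nfkbia and Ticam1 (-1.08, exact permutation p = 0.0346), where 50.5% of all these genes did. Relative to the neutrophil markers 7 of 10 members did, each with a negative difference, where 81.6% of all these genes did, so that such a p-value is common for these ratios. Cd14, Irak3 and Tnfaip3 were the 3 that did not. For the endothelial and the alveolar epithelial markers, 0 of 10 members passed, where 5.66% and 15.2% of all these genes did. These p-values are unadjusted over the 10 members and 4 marker lists, and the ratios were examined after the values had been seen.

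The other markers give the rest of the tissue. Of 8 alveolar macrophage markers, 1 passed an unadjusted limma p of 0.05, Chil3, with sums of 129 to 611 TPM against 316 to 1622 TPM. Of 7 T cell markers, 0 passed. Of 8 endothelial markers 8 were below 0 and 1, Kdr, passed, and of 8 alveolar epithelial markers 3 passed above 0. Alveolar epithelial markers summed to 3966 TPM or more in every lung. In these lists 0 genes were called by limma. Of the mesenchymal and pericyte markers 1 was called, the pericyte receptor Pdgfrb, at 31.8 to 72.5 TPM in the IL-10 B-WT lungs against 8.32 to 28.9 TPM (log2 fold change -1.44 with a limma adjusted p of 0.0456). It was called in 7 of 22 alternative fits, with limma adjusted p from 0.0260 to 0.184, and was not called after removing immunoglobulin genes (0.0624), with quantile normalization (0.0683) or with median centring (0.0842). Among B cell markers 1 was called, Cd79a, which was called in 17 of 22 alternative fits (limma adjusted p from 0.00966 to 0.0999). The hepatocyte markers Alb and Apoa2 were at most 8.44 and 7.75 TPM.

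The genes whose pattern over the 12 lungs was most like that of a member were named by Pearson's r of log2(TPM + 1), as a description. All points share the libraries, and both genotypes are pooled. For Cd14 they were Glrx, Ctsc and Pira2 (r of 0.991, 0.991 and 0.990), and for Tlr4 they were Ckap4, Il13ra1 and Ear6 (0.981, 0.980 and 0.980). For Tnfaip3 they were Tnip1, Vasp and Zc3h12a (0.992, 0.991 and 0.989), of which Tnip1, a partner of A20, and Zc3h12a, an RNase of inflammatory mRNAs, are on the list of feedback genes. For Nfkbia they were Brix1, Slc35d1 and Golga7 (0.977, 0.945 and 0.939), none of which is on a list used here.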

How the data were processed

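Libraries of whole-lung RNA, 6 per genotype, were grouped by the genotype in the labels. The authors deposited 1 table of TPM, with 1 column per library and no pooling. The submitters' processing notes name fastp, HISAT and RSEM and the build GRCm38.p5, and versions are not given in the sources used here. This unit holds no depth, so that how many reads lie behind a value is unknown, and neither a counting interval nor a count model could be had. Precision is given by the spread between lungs.

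The genotypes were compared by limma 3.58.1 under R 4.3.3 (with a variance trend) on log2(TPM + 1), a scale that understates changes of low genes. Of 55414 genes, 15148 had at least 1 TPM in at least 6 libraries. Adjustment was by Benjamini-Hochberg, and genes were called at an adjusted p up to 0.05 where the log2 fold change was 1 or more in size. Single values were compared by two-sided exact permutation tests (SciPy 1.17.1, NumPy 2.4.6). On simulated data, 92 of 100 genes with a log2 change of 2 and 3 of 14948 unchanged genes were called. The simulated noise was normal and independent between genes. Shifts of many genes in 1 lung, as in IL-10 B-WT replicate 1, were not simulated, so these counts need not hold for the real libraries.

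The members and lists were chosen with earlier results of these data known. Named were all 10 members, the called genes of each list or otherwise the 2 with the smallest p (fewer are named of some marker lists), and the 3 genes most correlated with each of Tlr4, Cd14, Tnfaip3 and Nfkbia. Alb and Apoa2 are the 2 tested hepatocyte markers. Fos, the ratios within a lung and the naming of Lyz2, S100a8 and S100a9 were taken up after the values were seen. Coordinates are from GENCODE M21 and promoters from RefSeq. Each fit was repeated with 0.1 as the pseudocount, unfiltered, for genes with a mean of 5 TPM or more, after removing immunoglobulin genes from the totals, after quantile or median scaling, with array weights, with no trend, with replicate numbers as a block and with each lung left out. After seeing the data, rescaling without mitochondrial and globin genes was added. One marker gene is not reported here.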

Additional observations from a re-analysis of the deposited data

Results flagged for a closer look

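IL-10 B-WT replicate 1 lay far above the other 5 lungs of its genotype for 5 members, with a gap to the next lung beyond the 95% limit of Dixon's test for 6 values. Tlr4 was at 10.99 TPM there (next 5.48 TPM), Cd14 at 230.8 TPM (next 44.1 TPM), Myd88 at 133.0 TPM (next 48.2 TPM), Irak3 at 50.93 TPM (next 9.05 TPM) and Tnfaip3 at 73.86 TPM (next 20.8 TPM). The gaps were taken on TPM, not on the log2 scale of the other tests. Of 20 groups examined, 5 exceeded the limit. Chance gives about 1 in 20 only for values with a normal spread, which TPM need not have. The 5 are not independent, since they share 1 lung. The same lung had the highest sum of monocyte and macrophage markers of all 12 lungs (13935 TPM). No IL-10 B-KO lung exceeded the limit for a member.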

How the results depend on the processing

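The 75 genes called became 6 without a filter, 27 without immunoglobulin genes, 39 with quantile normalization, 36 with median centring, 318 with array weights (81 higher) and 0 by the adjusted exact permutation test (1695 unadjusted). The last count was nearly set by the design, since 6 against 6 lungs give no p below 0.00216 and 15148 genes were adjusted for. Leaving out 1 lung gave 19 to 604 called genes, with 604 (359 higher) when IL-10 B-WT replicate 1 was left out, 38, 23 and 35 for replicates 4, 5 and 6, and 19, 116, 33, 19 and 46 for IL-10 B-KO replicates 1, 2, 3, 5 and 6. The 0 members called became 1 with array weights and 0 to 1 with 1 lung left out. The 4 members at an unadjusted p became 1 without immunoglobulin genes, 1 by exact permutation and 1 to 8 with 1 lung left out. Lungs with the same number deviated from their groups with correlations of -0.292 to 0.0458. Such values cannot decide whether these lungs shared more than a number. With that number as a replicate block, 45 genes and 0 members were called, and 2 members passed an unadjusted p. For this fit and for that without immunoglobulin genes, the share of all genes passing an unadjusted p was not counted. Whether the lower counts concern the members or all genes is therefore not known. The log2 fold change of Nfkbia lay between -0.27 and 0.17 with 1 lung left out and turned to 0.17, 0.02 and 0.04 without IL-10 B-WT replicates 1, 2 and 6, and to 0.01, 0.08 and 0.08 without IL-10 B-KO replicates 1, 2 and 4. The other 9 members were above 0 in all 23 alternatives. Median centring moved the median of all genes from 0.10 to -0.01 and that of the members from 0.64 to 0.53, and the relay genes above 0 from 18 to 16. The causes were not tested.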
